A study of Mus musculus with 4 samples.

Results

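The genes described here encode the major histocompatibility complex (MHC) class I antigen presentation pathway and a pair of ligands of the activating receptor NKG2D. They were chosen by name, as the rows of the deposited tables whose gene symbol was H2-D1, H2-K1, H2-T23, H2-M3, B2m, Tap1, Tap2, Tapbp, Raet1d or Raet1e. All 10 had a row in both tables, among 18526 genes listed in either table and 16655 listed in both, and all 10 passed the filter on low counts that left 15236 genes. The list was drawn up with the comparison of knockout and control in view, so the members' differences between genotypes are given as a description; where members past a test are counted, the count stands only beside that of all genes.

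RNA sequencing was done on microglia sorted by fluorescence from C57BL/6 mice at embryonic day 14; the series names the telencephalon as source and the extraction protocol the cortex. One group carried a conditional knockout of Arid1a (Arid1acKO, here cKO) and the other was Arid1afl/fl, whose Arid1a allele is floxed and which served as control. Of 4 labelled samples, 3 libraries were analysed here, cKO replicate 2 and control replicates 5 and 6; cKO replicate 1 was not analysed here. Neither the Cre driver is named in the labels, nor is it told whether embryos were pooled or were different ones for each library. Every spread and p-value below therefore measures only the spread between these libraries, which may be technical.

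Class I molecules display peptides from inside the cell at its surface. A heavy chain (H2-K1 and H2-D1 are the classical, highly polymorphic ones in this strain) pairs with the light chain beta-2 microglobulin, encoded by B2m, and is loaded in the endoplasmic reticulum with peptides that the Tap1-Tap2 transporter brings in and that tapasin, encoded by Tapbp, helps to place. CD8 T cells read the complex, and natural killer cells are held back by it. Raet1d and Raet1e encode RAE-1 proteins, class I-like surface molecules that bind neither peptide nor beta-2 microglobulin and that engage NKG2D on natural killer cells. Resting microglia are known for low class I display, which interferons raise.

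The counted reads came to 17262261 in the cKO library, 18608979 in control 5 and 13774075 in control 6. Levels below are read counts scaled to library size with TMM factors (CPM). Each interval is a 95% exact Poisson one and covers counting error only. Arid1a stood at 68.9 CPM in the cKO library against 109 and 130 in the controls, lowest in the library labelled cKO. The difference (log2 fold change -0.80, SE 0.41) missed the threshold of the edgeR quasi-likelihood test (adjusted p = 0.901), and a count over all exons also takes in those outside a floxed segment. All 10 microglia markers examined were detected in every library, with summed levels of 13979 CPM in the cKO library, 19565 in control 5 and 27145 in control 6. Siglech stood out among them, at 58.3 CPM against 918 and 1057 (log2 fold change -4.08, SE 0.42, adjusted p = 0.0324 by edgeR), a call that was lost when size factors came from DESeq2 or the upper quartile, and when genes at low counts were kept. In bulk RNA, fewer cells of a type and less RNA per cell cannot be told apart.

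Of the 10 members, 9 were higher in the cKO library than in both controls, and Tapbp lay between them. Over all genes tested, 38.0% were higher in the cKO library than in both controls (35.8% of those at a mean of 5 CPM or more) and 31.1% were lower. The median log2 fold change was 0.87 over the members and 0.05 over all genes tested. The controls also stood apart in these genes: control 6 was above control 5 in all 10 members, with a median log2 ratio of 0.66, where 53.2% of all genes tested were higher in control 6 and the median ratio was 0.07. The members' median log2 ratio was accordingly 1.39 over control 5 and 0.47 over control 6, and both ratios share the one cKO library.

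In 5 members (H2-D1, H2-T23, H2-M3, B2m and Raet1d) the cKO library exceeded the higher control by more than the controls differed from each other, as did 22.5% of all genes tested. H2-D1 and Raet1d were at least 2-fold above both controls, as were 9.84% of all genes. The share of genes that passed the edgeR test at an adjusted p of 0.05 was 0.0394%, that is 6 of 15236 (0.0131% higher and 0.0263% lower), and 0 of 10 members were among them. At an unadjusted p under 0.05 the count was 3 members, beside 6.00% of all genes (2.46% higher and 3.54% lower). The DESeq2 Wald test called H2-D1 and Raet1d, beside 223 of the 10510 genes to which it gave an adjusted p. Among genes at 5 CPM or more in at least 2 libraries, edgeR called both (adjusted p = 0.0479 and 0.0158), where 44 of 9628 passed. Since the members were chosen on this contrast, nothing is read from these counts.

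**Figure D1:**
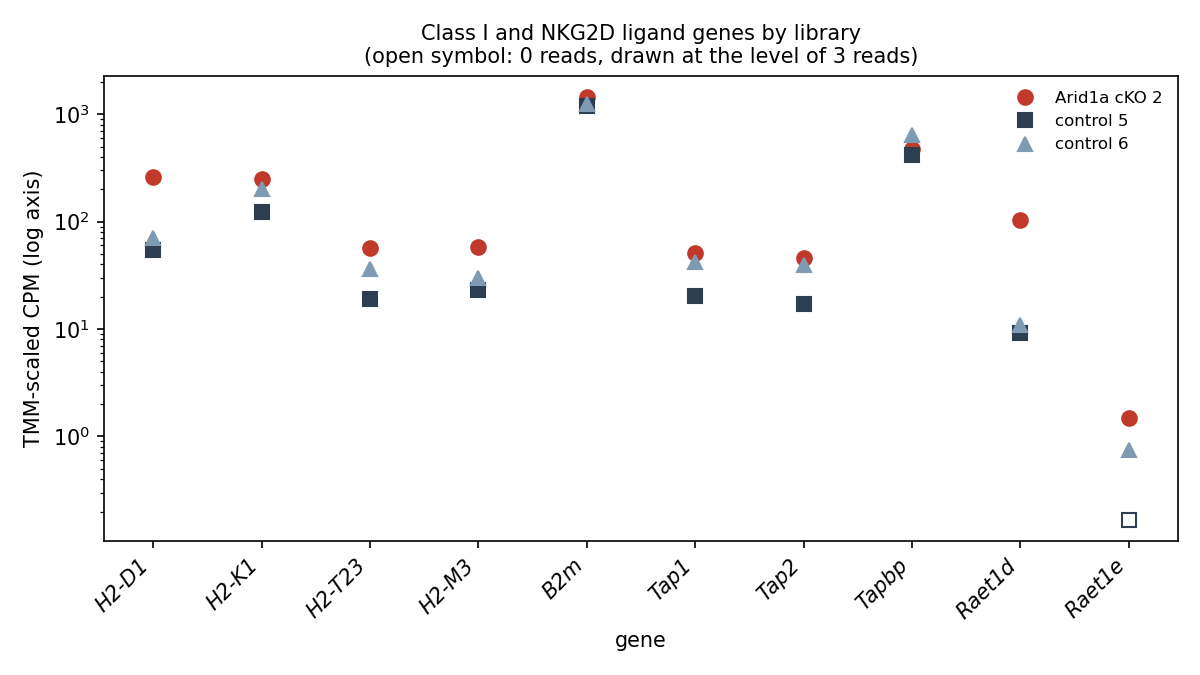
Level of each gene in each library, in TMM-scaled CPM on a log axis; circles are the cKO library, squares control 5 and triangles control 6, and the open square marks 0 reads, drawn at the level of 3 reads. The cKO library is the highest symbol for every gene but Tapbp, with the widest gap at Raet1d (103 CPM against 9.16 and 11).

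Among the heavy chains, H2-D1 had the widest difference. H2-D1 (ENSMUSG00000073411, chromosome 17, 35262730 to 35267499, plus strand), a classical heavy chain, had 4808 reads in the cKO library, 974 in control 5 and 958 in control 6. In CPM these are 263 (interval 256 to 271), 54.4 and 71.0, and the cKO level was 4.20 times the control mean of 62.7 ± 11.7 CPM (SD, n = 2). The cKO level was 4.84 times that of control 5 and 3.71 times that of control 6, while the controls differed from each other by 1.30-fold. Its log2 fold change was 2.07. The authors' deposited table gave folds of 5.32 (control 5) and 4.0 (control 6) and marked H2-D1 as changed against each.

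H2-K1 (ENSMUSG00000061232, chromosome 17, 33996017 to 34000333, minus strand), the other classical heavy chain, had 4504, 2182 and 2694 reads. Its levels were 247 CPM in the cKO library (interval 239 to 254), 122 in control 5 and 200 in control 6, a control mean of 161 ± 55.0 CPM (SD, n = 2). Here too the cKO level was the highest, by 2.02-fold over control 5 but by 1.24-fold over control 6, which is less than the 1.64-fold between the controls. The log2 fold change was 0.62.

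The pair of classical heavy chains therefore stood in another order in the 1 cKO library than in the controls, which does not show it for the genotype. In CPM, H2-D1 was 1.07 times H2-K1 in the cKO library, and 0.446 and 0.356 times in controls 5 and 6. Per kilobase of exon, H2-D1 stood at 0.509 times H2-K1 in control 5 and 0.405 times in control 6, and at 1.22 times in the cKO library. H2-D1 made up 42.2% of the CPM summed over the 4 member heavy chains in the cKO library, against 24.9% and 21.1% in the controls, and H2-K1 made up 39.5% against 55.7% and 59.2%. The summed level was 624 CPM in the cKO library, 219 in control 5 and 337 in control 6.

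**Figure D2:**
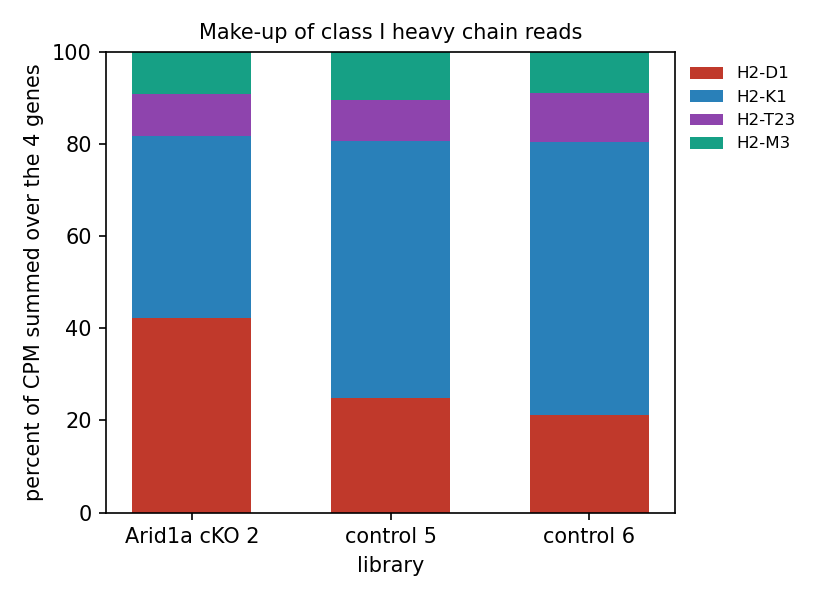
Percent of the CPM summed over H2-D1, H2-K1, H2-T23 and H2-M3 that each gene makes up, in each of the 3 libraries. The H2-D1 segment is 42.2% in the cKO library against 24.9% and 21.1% in the controls, and the H2-K1 segment is smaller there by about as much.

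The nonclassical heavy chains H2-T23 and H2-M3 lay between these extremes. H2-T23 (ENSMUSG00000067212, chromosome 17, 36029773 to 36032855, minus strand) encodes Qa-1, which presents leader peptides of other class I chains to the CD94-NKG2A receptor of natural killer cells. It had 1030, 344 and 491 reads, or 56.4 CPM in the cKO library (interval 53.0 to 59.9), 19.2 in control 5 and 36.4 in control 6. The cKO library was the highest and the controls were 1.89-fold apart, with a log2 fold change of 1.02. H2-M3 (ENSMUSG00000016206, chromosome 17, 37270220 to 37274484, plus strand), which presents N-formylated peptides such as those of bacteria, had 1064, 416 and 405 reads. Its levels were 58.2 CPM (interval 54.8 to 61.9), 23.2 and 30.0, so that the cKO library was 2.19 times the control mean of 26.6 ± 4.79 CPM (SD, n = 2) and the controls were 1.29-fold apart. The log2 fold change of H2-M3 was 1.13.

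The stretches around the start sites of H2-D1, H2-K1 and H2-M3 are shown because classical class I promoters are known to hold an NF-kB site (enhancer A) next to an interferon-stimulated response element, and H2-D1 and H2-K1 differ in the data above. RefSeq promoter windows on GRCm38.p6, from 250 bases before to 50 after a start site, were found for 9 of the 10 members, Tap2 being the exception. Capitals mark matches to the NF-kB core GGGNNTTCC and to a core of the interferon-stimulated response element, GAANNGAAA, which lacks 1 A of the full consensus and is read on the opposite strand here as TTTCNNTTC. The windows are chr17:35262844-35263143 (plus strand) for H2-D1, chr17:34000284-34000583 (minus strand, the second of its start sites listed) for H2-K1 and chr17:37269984-37270283 (plus strand) for H2-M3.
H2-D1: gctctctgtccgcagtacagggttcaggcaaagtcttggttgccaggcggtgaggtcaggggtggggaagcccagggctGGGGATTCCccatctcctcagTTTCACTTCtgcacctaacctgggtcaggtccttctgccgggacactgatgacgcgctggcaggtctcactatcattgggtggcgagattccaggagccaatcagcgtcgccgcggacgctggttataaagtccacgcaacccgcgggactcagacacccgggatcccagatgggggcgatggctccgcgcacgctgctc
H2-K1: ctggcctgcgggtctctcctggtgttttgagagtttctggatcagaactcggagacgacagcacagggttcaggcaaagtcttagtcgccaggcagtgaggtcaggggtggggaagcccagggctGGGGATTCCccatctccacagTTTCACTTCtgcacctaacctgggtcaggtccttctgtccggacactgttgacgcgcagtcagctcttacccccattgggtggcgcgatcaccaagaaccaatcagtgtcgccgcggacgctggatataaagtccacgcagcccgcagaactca
H2-M3: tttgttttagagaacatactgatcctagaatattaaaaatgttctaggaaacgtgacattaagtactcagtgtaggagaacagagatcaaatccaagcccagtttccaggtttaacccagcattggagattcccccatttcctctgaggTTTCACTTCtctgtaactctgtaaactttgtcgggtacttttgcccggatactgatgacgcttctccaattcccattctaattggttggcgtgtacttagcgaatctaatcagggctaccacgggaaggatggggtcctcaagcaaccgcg

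H2-D1 and H2-K1 carried both cores in the same order, with 12 bases between the matches, at positions -171 and -150 from the start site in H2-D1 and -125 and -104 in H2-K1. The windows aligned over 253 bases, of which 222 were identical (87.7%). H2-M3 had the shorter response element core, at -101, and no match to the NF-kB core. Of 32851 promoter windows of this length, 7.52% held GAANNGAAA on either strand, 5.82% the NF-kB core and 0.417% both. The half-site TGACG, bound by CREB and ATF factors, was found in 5 of the 9 members with a window and in 20.8% of all windows, and CCAAT in all 9 and in 37.4%. The full consensus, with 1 more A in its first run, was searched after the data were seen and was found in B2m (at -139) and H2-T23 (at -124), in none of the other members with a window, and in 3.44% of all windows; which members match therefore depends on the letters searched. The windows of Tap1, Tapbp, Raet1d and Raet1e held neither form of the response element and no NF-kB core. A match is a run of letters and not a measured site, and no binding was measured here.

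B2m, the light chain shared by nearly all class I molecules, was by far the most abundant member and differed little. B2m (ENSMUSG00000060802, chromosome 2, 122147686 to 122153083, plus strand) had 26465, 21273 and 16734 reads. Its levels were 1449 CPM in the cKO library (interval 1431 to 1466), 1188 in control 5 and 1240 in control 6, a control mean of 1214 ± 36.6 CPM (SD, n = 2). The cKO level was 1.19 times that mean, above both controls, with a log2 fold change of 0.25. Per kilobase of exon, B2m exceeded the sum of the 4 member heavy chains 16.2-fold in control 5, 11.2-fold in control 6 and 6.85-fold in the cKO library. The excess over these 4 genes was thus smallest in the cKO library. That sum leaves out 11 other class I and class I-like heavy chains that were tested. Of those, 7 were above both controls in the cKO library and 4 below both, among the latter Fcgrt at 437 CPM against 904 and 1064. The ratio therefore does not describe all partners of B2m.

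For the transporter genes the cKO library was set apart from control 5 far more than from control 6. Tap1 (ENSMUSG00000037321, chromosome 17, 34187553 to 34197225, plus strand) had 941, 361 and 568 reads, or 51.5, 20.2 and 42.1 CPM in the cKO library, control 5 and control 6. Tap2 (ENSMUSG00000024339, chromosome 17, 34203527 to 34216321, plus strand) had 840, 305 and 538 reads, or 46.0, 17 and 39.9 CPM. In both genes the cKO library was the highest, but it lay close to control 6: its level was 1.22 and 1.15 times that of control 6, where control 6 was 2.09 and 2.34 times control 5. The log2 fold changes were 0.73 and 0.69. The transporter subunits kept a nearly fixed ratio, with Tap1 at 0.773, 0.817 and 0.729 times Tap2 per kilobase of exon in the cKO library, control 5 and control 6.

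Tapbp was the member that was not higher in the cKO library than in both controls. It encodes tapasin, which bridges empty class I molecules to the transporter (ENSMUSG00000024308, chromosome 17, 33915899 to 33929288, plus strand). With 8654, 7432 and 8575 reads it stood at 474 CPM in the cKO library (interval 464 to 484), 415 in control 5 and 635 in control 6. The cKO library lay between the controls, with a log2 ratio of 0.19 over control 5 and -0.42 over control 6.

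**Figure D3:**
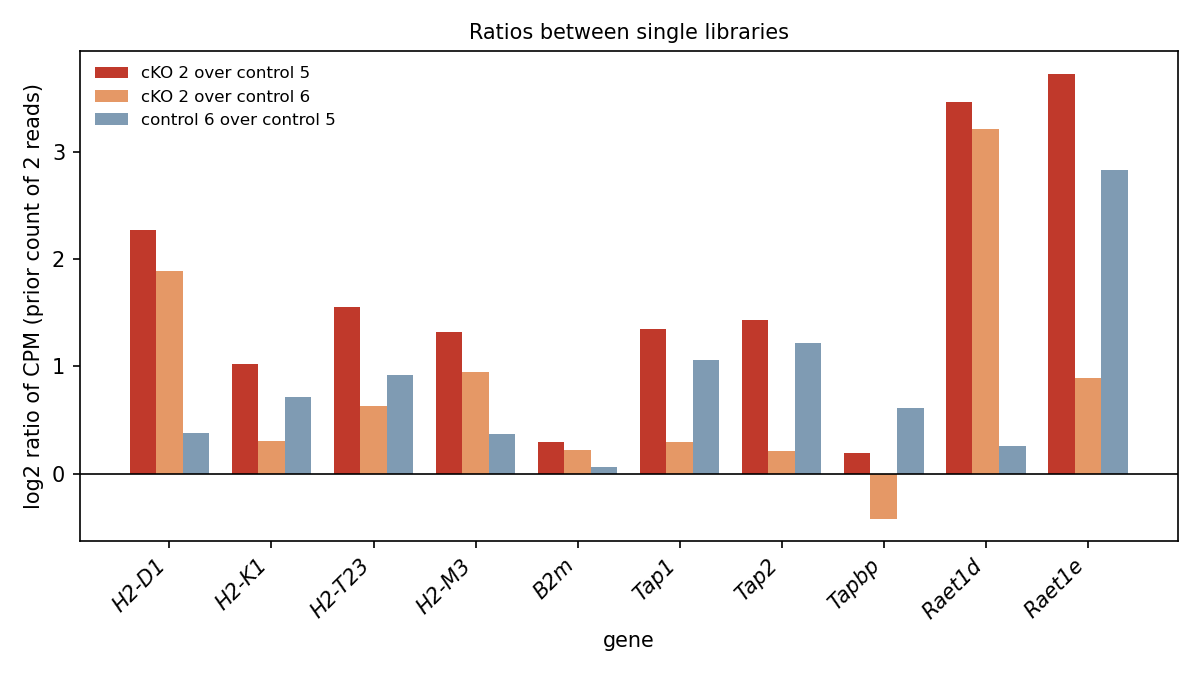
Log2 ratios of CPM between single libraries for each gene, with a prior count of 2 reads; the first bars compare the cKO library with control 5, the next with control 6, and the last compare the 2 controls. For H2-D1 and Raet1d both cKO bars exceed the control bar (0.38 and 0.26) severalfold, whereas for Tap1 and Tap2 the control bar (1.06 and 1.22) is nearly as tall as the ratio over control 5.

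Raet1d had the largest difference of all members at a level above a few CPM. Raet1d (ENSMUSG00000078452, chromosome 10, 22360552 to 22374139, plus strand), which encodes the RAE-1 delta ligand of NKG2D, had 1875 reads in the cKO library, 164 in control 5 and 148 in control 6. These are 103 CPM (interval 98.0 to 107), 9.16 and 11, a control mean of 10.1 ± 1.28 CPM (SD, n = 2). Its cKO level was 11.2 times control 5 and 9.36 times control 6, while the controls were 1.20-fold apart, and the log2 fold change was 3.35. Among the 10 members, Raet1d held rank 5 by level per kilobase in the cKO library, rank 7 in control 5 and rank 9 in control 6. The authors' deposited table gave folds of 12.3 and 10.1 and marked the gene as changed against both controls.

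Raet1e (ENSMUSG00000053219, chromosome 10, 22158569 to 22374139, plus strand), which encodes RAE-1 epsilon, was close to the limit of counting. It had 27 reads in the cKO library, 0 in control 5 and 10 in control 6, or 1.48 CPM (interval 0.974 to 2.15), 0 and 0.741. Raet1e was highest in the cKO library, 1.99 times control 6 and, with control 5 taken at 3 reads (0.168 CPM), at least 8.82-fold higher than control 5. The 58.2-fold over control 5 in the authors' deposited table comes from their replacing a count of 0 by 0.5 reads.

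Both RAE-1 genes lie in one cluster, and the gene model of Raet1e in the files spans that of Raet1d whole. Of the exon bases of Raet1d in GENCODE M21, 25.2% also belong to exons of Raet1e, on the same strand. RefSeq windows follow for the start site of Raet1d (chr10:22361644-22361943, plus strand) and the second start site of Raet1e (chr10:22173247-22173546, plus strand). They are shown because they are near copies of each other. No letters are in capitals, since neither window held the NF-kB core or the response element core. CCAAT, which both windows hold, was not marked.
Raet1d: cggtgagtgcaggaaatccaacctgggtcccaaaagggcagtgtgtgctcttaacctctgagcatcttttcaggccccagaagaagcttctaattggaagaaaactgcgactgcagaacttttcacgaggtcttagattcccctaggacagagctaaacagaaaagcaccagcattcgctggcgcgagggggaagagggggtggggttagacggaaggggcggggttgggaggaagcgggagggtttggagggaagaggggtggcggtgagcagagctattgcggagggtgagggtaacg
Raet1e: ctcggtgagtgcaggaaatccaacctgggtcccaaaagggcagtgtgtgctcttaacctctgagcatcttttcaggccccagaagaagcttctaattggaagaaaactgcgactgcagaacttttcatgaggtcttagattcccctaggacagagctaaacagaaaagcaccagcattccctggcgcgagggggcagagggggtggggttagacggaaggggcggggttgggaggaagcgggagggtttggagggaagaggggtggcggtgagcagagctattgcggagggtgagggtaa
Of 298 aligned bases, 295 were identical (99.0%). In the transcripts, 55.8% of the 50-base windows of Raet1d also occur in those of Raet1e. This share of exact windows is not a base identity, and it takes in the exon bases that both gene models hold. Reads from shared stretches cannot be assigned to one of the genes, so the division of reads between Raet1d and Raet1e is uncertain, and how the counting treated them is not given in the sources used here.

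Sequence shared with other genes was lower for the class I heavy chains. The share of 50-base windows found in another gene's transcripts was 12.8% for H2-D1, 9.63% for H2-K1, 14.5% for H2-T23 and 0.576% for H2-M3. H2-D1 shared 5.44% of its windows with H2-K1, 5.87% with H2-Q1, 4.75% with H2-Q7 and 4.28% with H2-Q6. With windows of 100 bases, chosen after the data were seen, the shares fell by construction to 3.59%, 0.957%, 3.15% and 0% for the 4 heavy chains and to 35.7% for Raet1d. B2m shared no window of 50 bases. In Tapbp, Tap2 and Tap1 most shared windows come from overlapping genes on the opposite strand (24.9% of exon bases of Tapbp under Gm19412, 14.1% of Tap2 under Gm15821 and 3.87% of Tap1 under Psmb9), whose reads an unstranded library cannot separate. Gm15821 had 0 reads in the cKO library and 6 in control 6.

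Reads were also summed over H2-D1, H2-K1, H2-Q4, H2-Q6, H2-Q7 and the pseudogene H2-K2, a level that a division of reads among these genes leaves unchanged. This set was picked after seeing the data. The sums were 10261 reads in the cKO library, 3282 in control 5 and 3817 in control 6, or 562, 183 and 283 CPM. The sum was highest in the cKO library, 3.06-fold over control 5 and 1.99-fold over control 6. Over the control mean the sum was 2.41-fold higher, where H2-D1 alone was 4.20-fold higher. The sum takes in all reads of H2-K1, an abundant gene with a smaller difference, which lowers the fold whether or not reads were divided. It therefore does not show how far a division of reads alters the fold of H2-D1. A wider sum took in H2-D1 and 9 genes with a row, H2-T22 and H2-T23 included, from those ranked highest by 50-base windows shared with it. Each of the 9 shared from 1.93% to 5.44% of the windows of H2-D1. The wider sum gave 642, 220 and 330 CPM, or 2.92-fold over control 5 and 1.95-fold over control 6. H2-K2 itself had 617 reads against 90 and 150.

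Compared per kilobase of exon, the members spanned a wide range of levels. The control means, in CPM per kilobase, were 1412 for B2m, 145 for Tapbp, 54.7 for H2-K1, 24.3 for H2-D1, 18.5 for H2-M3, 9.62 for H2-T23, 7.52 for Tap2, 6.98 for Raet1d, 5.68 for Tap1 and 0.172 for Raet1e. H2-T23 (6.65 and 12.6 in the controls), Tap2 (4.51 and 10.5), Raet1d (6.36 and 7.61) and Tap1 (3.68 and 7.69) overlapped, so their order is not resolved. In the cKO library, H2-D1 (102), H2-K1 (83.9) and Raet1d (71.2) followed B2m (1685) and Tapbp (131), and Raet1d thus stood above H2-M3 (40.5) and H2-T23 (19.5).

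Of the other genes of the pathway, 90 gene IDs from 6 lists had a row and 86 were tested. None of the 86 passed the edgeR test, beside 0.0394% of all genes, and 12 had an unadjusted p under 0.05, beside 6.00% of all genes; the smallest adjusted p was 0.0773. The DESeq2 Wald test called 3 of them, Lilrb4a and Lilr4b higher and Fcgrt lower. Over all genes that test called 223 of the 10510 to which it gave an adjusted p. The cKO library was above both controls in 41 and below both in 22, beside 38.0% and 31.1% of all genes, and their median log2 fold change was 0.13, against 0.05 over all genes tested. Adjusted p-values below are from the edgeR fit over all 15236 genes.

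Of 27 other class I and class I-like heavy chains, 13 had a row and 11 were tested, and 0 passed. The cKO library was above both controls in 7 and below both in 4, beside 38.0% and 31.1% of all genes. The 7 were H2 genes, some of them at few reads or close to the controls. H2-Q6 and H2-Q7, nonclassical heavy chains of the Q region named after their values were seen, had 190 reads against 20 and 12, and 101 against 2 and 2 (adjusted p = 0.666 and 0.680), and the others were H2-Q4, H2-Q5, H2-T22, H2-T24 and H2-M5. H2-T22 and H2-T24, likewise outside the naming rule, had 20.6 CPM against 17.1 and 10.8, and 18.1 against 17.6 and 15.7. The 4 below both controls were class I-like genes that present no peptide to classical T cells. Fcgrt, the neonatal Fc receptor that salvages immunoglobulin G, had 437 CPM against 904 and 1064 (log2 fold change -1.17, SE 0.35, adjusted p = 0.549). Hfe, a regulator of iron uptake, had 116 CPM against 224 and 261 (adjusted p = 0.720). Mr1, which presents vitamin B metabolites, had 42.3 against 75.9 and 61.9, and Cd1d1, which presents lipids, had 8.05 against 16.4 and 10.2. The proteins of all 4 pair with beta-2 microglobulin, as the member heavy chains do, and all 4 genes were below both controls. The median log2 fold change of the 11 was 0.56, but -0.71 over the 6 at a mean of 5 CPM or more.

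Of the genes that make and load peptides, all 19 were tested and 0 passed, with 2 at an unadjusted p under 0.05, and their log2 fold changes had a median of 0.25. The cKO library was above both controls in 10 of the 19 and below both in 4, beside 38.0% and 31.1% of all genes. The immunoproteasome subunit Psmb10 had 92.9 CPM against 75.9 and 57.2, Psmb7, a subunit of the constitutive proteasome, had 122 against 84.9 and 94.6, and Uba7, the activating enzyme for ISG15, had 78.2 against 65.2 and 53.4. Psmb9, whose exons overlap those of Tap1 on the other strand and which falls outside the naming rule, stood at 34.8 CPM against 34.0 and 30.5, without the step between the controls that Tap1 showed. Canx, a chaperone of newly made heavy chains, went the other way, at 1458 CPM against 3130 and 2385 (log2 fold change -0.92, SE 0.33, adjusted p = 0.733). Nlrc5, the transactivator of class I promoters, had 212 reads in the cKO library against 1 and 23 in the controls (adjusted p = 0.821); it lies below the level set for naming genes and was named after its values were seen.

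Other NKG2D ligands did not follow Raet1d. Of 7 on the list, Ulbp1 and H60b had a row. Ulbp1, which encodes the ligand MULT1, had 30.7 CPM in the cKO library, 24.7 in control 5 and 32.0 in control 6, which places the cKO level between the controls. H60b, named after its values were seen, had 12 reads against 1 and 44 and also lay between them. Both were tested and 0 passed, and the differences between these genes and Raet1d were not tested.

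Among receptors and adaptors, 12 of 13 IDs were tested and 0 passed (median log2 fold change 0.86). Lilrb4a, an inhibitory receptor of myeloid cells, had 4143 reads in the cKO library, 612 in control 5 and 474 in control 6, or 227, 34.2 and 35.1 CPM (log2 fold change 2.71, SE 0.37, adjusted p = 0.0773). Its neighbour and close paralog Lilr4b had 176 CPM against 60.9 and 47.6 (adjusted p = 0.294), and the counting could divide reads between them. Pirb, an inhibitory receptor that binds class I molecules, had 52.1 against 21.8 and 29.8 (adjusted p = 0.878). All 3 were higher in the cKO library than in both controls. Trem2, a lipid-sensing receptor of microglia that signals through Tyrobp, had 82.6 CPM against 126 and 192. Klrk1, the gene of NKG2D itself, had 32 reads against 15 and 38, named after its values were seen.

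The list of interferon and NF-kB inputs had 34 of 35 tested and 0 passed (median log2 fold change 0.13). Usp18, a negative regulator of interferon signalling that interferon induces, had 361 reads against 51 and 66, or 19.8 CPM against 2.85 and 4.89 (log2 fold change 2.35, SE 0.77, adjusted p = 0.636). Irf7, an interferon-induced transcription factor, had 13.1 CPM against 0.614 and 3.11 (adjusted p = 0.810). Nfkb2, a subunit of the noncanonical NF-kB pathway, had 43.1 CPM against 5.64 and 23.3 (adjusted p = 0.889), and Nfkb1, of the canonical pathway, had 75.3 against 144 and 121 (adjusted p = 0.889). Irf1, a direct inducer of class I genes that falls outside the naming rule, stood at 49.7 CPM against 38.5 and 41.0.

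Of the other ligands of natural killer cell receptors, all 8 were tested and 0 passed, with a median log2 fold change of -0.35. The cKO library was above both controls in 3, a share near the 38.0% of all genes, and below both in 5, beside 31.1%. Cd274, the inhibitory ligand PD-L1, had 34.4 CPM against 12.1 and 14.3 (log2 fold change 1.38, SE 0.55, adjusted p = 0.801). Clec2d, the ligand of an inhibitory NKR-P1 receptor, had 5.69 CPM against 8.27 and 8.97. Nectin2 and Pvr, adhesion molecules that bind DNAM-1, had 38.8 CPM against 42.7 and 99.1, and 55.3 against 62.3 and 68.2.

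**Figure D4:**
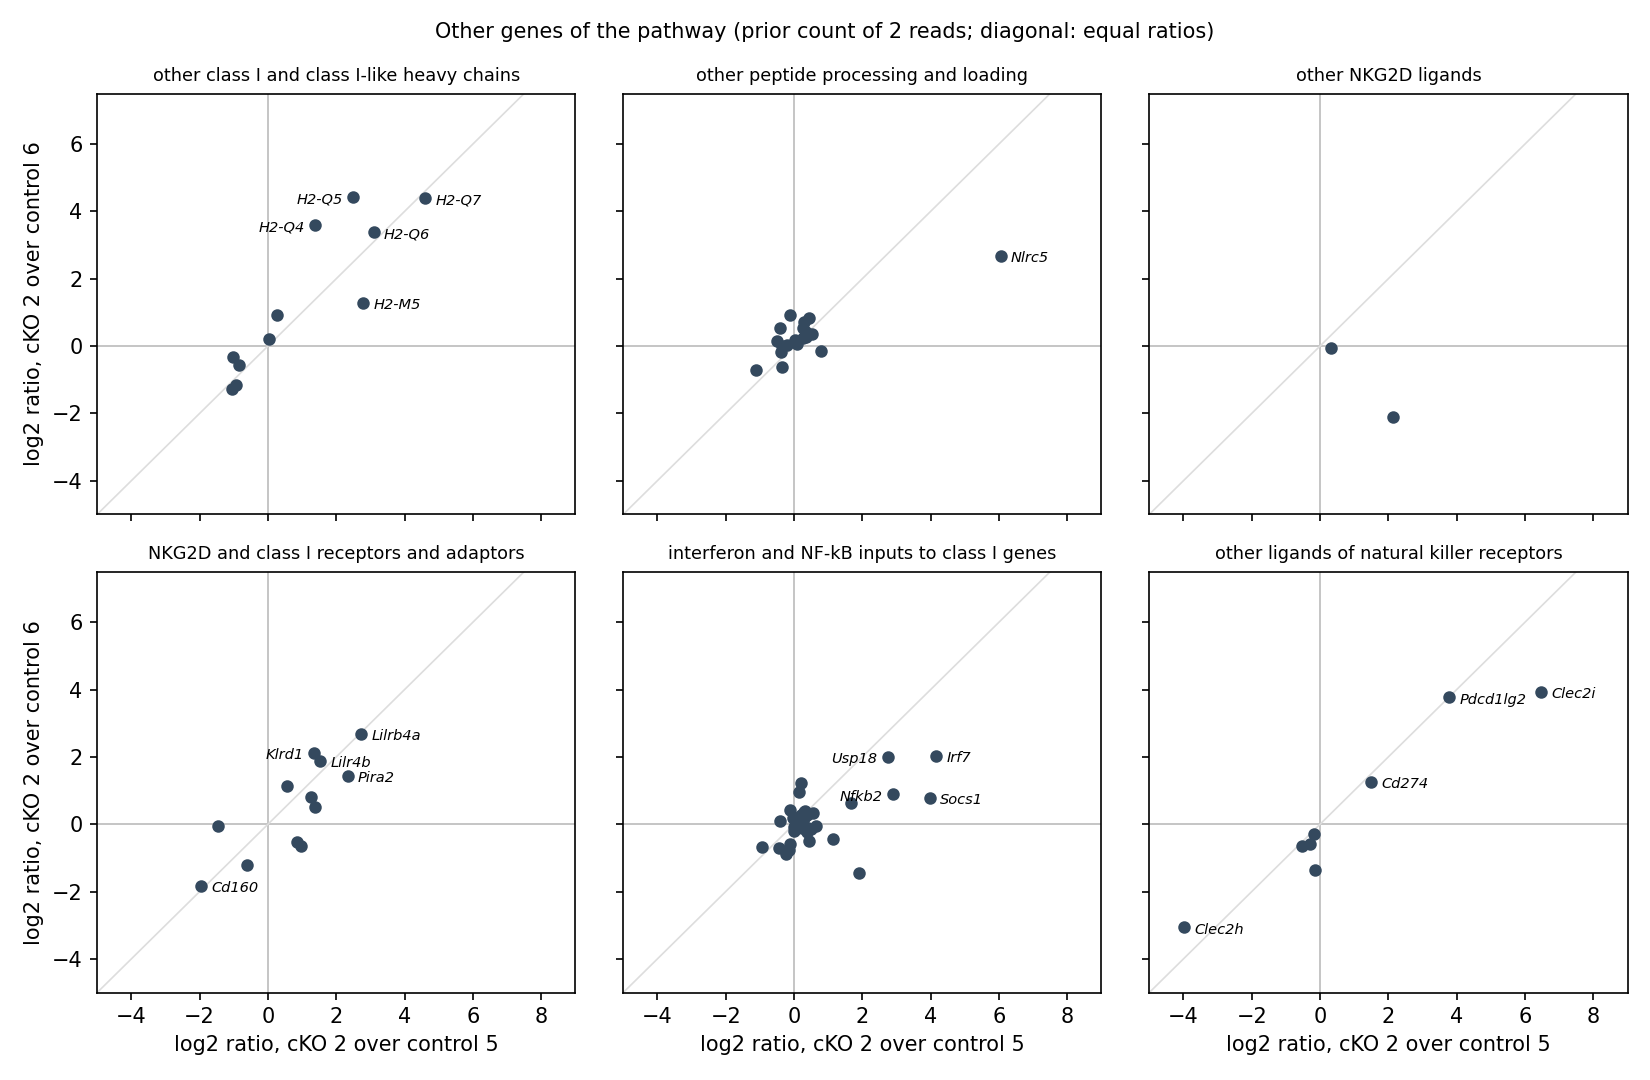
Each point is a tested gene of one of the 6 other lists, placed by its log2 ratio of CPM in the cKO library over control 5 (horizontal) and over control 6 (vertical), with a prior count of 2 reads; both axes share the cKO library, so points follow the diagonal in part for that reason. H2-Q6, H2-Q7 and Lilrb4a lie near the diagonal, whereas Nlrc5 lies at 6.05 and 2.68.

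Of the 10 members, 7 lie in the MHC region of chromosome 17, between 33915899 and 37274484. The 112 other genes tested in that span were above both controls in 54.5% and below both in 22.3%; 0 passed, and their median log2 fold change was 0.26. On the rest of chromosome 17 the shares among 604 genes were 38.9% and 30.0%, with a median of 0.09. Among genes at a mean of 5 CPM or more the share above both controls was 50.7% of 71 in the span and 37.8% of 397 outside it. The other genes in the span include class I paralogs and pathway genes described above, such as H2-Q6, H2-Q7 and Psmb9, and class II genes. These counts are a description.

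For H2-K1, the most abundant member heavy chain in the controls by CPM, the genes with the nearest pattern were Prrc2b, Abt1, Coro1a, Gm6682 and Cdk11b, by Euclidean distance between centred log2 levels over the 3 libraries (0.00073 to 0.034). Such a pattern was common, with 1706 of 9702 genes within 0.5. For Raet1d the nearest were Id1, Gm14287, Pdlim2, Rcn3 and Aph1c (0.17 to 0.37), and 8 of the 9702 lay within 0.5. Id1, an inhibitor of differentiation factors, had 20.5 CPM against 1.73 and 2.45, and Pdlim2, a ubiquitin ligase that acts on NF-kB proteins, had 106 against 9.10 and 9.26. Likeness over 3 libraries is a weak measure.

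Markers of other cells that carry class I molecules were summed beside these results. Endothelial markers (7 of 8 with a row) summed to 27.1 CPM in the cKO library, 43.8 in control 5 and 36.5 in control 6, and monocyte and neutrophil markers (8 of 8) to 207, 178 and 219. Dendritic cell markers (7 of 7) summed to 10.2, 20.7 and 17.6, with Zbtb46 at 0 in the cKO library, and border macrophage markers (6 of 6) to 377, 390 and 403. In none of these 4 lists was the sum highest in the cKO library, although single genes were, such as Plac8 (68.9, 14.7 and 31.7) and Kdr (14.3, 7.32 and 6.52). The largest part of the endothelial sum in the controls was Pecam1 (3.89, 20.5 and 27.3). Pecam1 and Cdh5 were lowest in the cKO library, Kdr, Cldn5 and Esam were highest there, and Flt1 and Tek lay between the controls. Natural killer and innate lymphoid markers, of which 3 of 11 had a row, summed to 80.6 CPM against 20.3 and 15.3, nearly all of it Il7r (79.8, 20.3 and 15.1), while Nkg7 and Gzmb were under 1 CPM in every library. Of 8 T cell markers only Lck had a row, at 1.15, 0 and 0 CPM, and B cell markers (3 of 5) summed to 23, 157 and 148, nearly all of it Cd79b. Neural progenitor markers (5 of 7) summed to 205, 138 and 137, where the higher value came from Vim (102, 36.5 and 18.4), which other cells also express, while Nes was at 97.0, 97.0 and 113 and Hes5 at 1.04, 1.62 and 2.07. The microglia sum was lowest in the cKO library. The part of the microglia, Vim and Il7r differences in the members' levels was not tested.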

How the data were processed

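Per the labels' protocols, libraries were made from total RNA of the sorted cells with a TruSeq RNA kit, which does not mark strand. The tools named in the submitters' processing notes are Bowtie2 2.2.3, TopHat2 2.0.12 and HTSeq 0.6.0, with build mm9; the gene positions deposited are on GRCm38 (89.9% identical to GENCODE M21) and are given so. The authors deposited raw read counts per gene, CPM in which a count of 0 stands at 0.5 reads, and their fold as a ratio of CPM, in 2 tables that share the cKO library and 16655 genes.

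From the deposited counts, edgeR 4.0.16 in R 4.3.3 was fitted to 15236 genes (filterByExpr, TMM, quasi-likelihood F test, two-sided, Benjamini-Hochberg, threshold 0.05). Each SE given is an approximation, the absolute log2 fold change divided by the square root of the F statistic, since the test reports none. A run on simulated counts used a dispersion far below the common value of 0.438 fitted here. That run therefore does not show how the test behaves on these data. With 1 cKO library the spread comes from the 2 controls alone. Alternatives used DESeq2 1.42.0, other factors, filters and gene sets. Library ratios used a prior count of 2. Exon lengths and transcript windows came from GENCODE M21. Each list named genes that passed and up to 4 more, ordered by p, among genes whose mean reached 5 CPM; the 5 genes nearest in pattern used a pseudocount of 0.1 CPM. The members and lists were chosen with earlier results of these data known.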

Additional observations from a re-analysis of the deposited data

How the results depend on the processing

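The number of genes that passed the test, 6, was 0 with DESeq2 size factors, 0 with upper-quartile factors, 0 with no low-count filter, 10 with genes listed in either table, 44 among genes at 5 CPM or more in at least 2 libraries and 223 by the DESeq2 Wald test. Of the pathway genes, where 0 passed, 1 passed (Lilrb4a, adjusted p = 0.0165) among genes at 5 CPM or more in at least 2 libraries, and 3 by the DESeq2 Wald test (Fcgrt 0.0325, Lilrb4a 5.48e-07, Lilr4b 0.0171). The cause was not tested. With 1 control left out there is no test; 9 to 10 members were then above the remaining control and 0 to 1 (Tapbp) below. Other factors, filters and gene sets moved no member's log2 fold change by more than 0.03, but the choice of control moved several: without control 5 it was 0.29 for Tap1, 0.21 for Tap2, 0.30 for H2-K1, 0.63 for H2-T23 and 0.89 for Raet1e, and without control 6 it was 1.35, 1.43, 1.02, 1.55 and 3.85, while Tapbp went from -0.42 to 0.19. H2-D1 was at 1.89 and 2.28 and Raet1d at 3.21 and 3.47. For Raet1e a prior count of 0.5 reads gave 3.30 and of 5 reads 1.67. Raet1e was not tested among genes at 5 CPM or more. No paired analysis was possible because the groups share no replicate number.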

Other observations

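Genes of the class II pathway, which presents peptides from outside the cell and lies beside the class I genes on chromosome 17, were not among the genes described above. H2-Ab1, a class II beta chain, had 24.9 CPM in the cKO library against 80.3 in control 5 and 54.2 in control 6 (log2 fold change -1.44, SE 0.50, adjusted p = 0.680, edgeR). H2-Aa, its alpha chain partner, had 15.1 CPM against 37.4 and 34.7 (adjusted p = 0.821), and H2-Eb1 had 7.66 against 18.2 and 18.5 (adjusted p = 0.930). All 3 were lower in the cKO library than in both controls, the side opposite to H2-D1, and none passed the test. Cd74, the class II invariant chain, had 27.4 CPM against 55.2 and 27.6. Ifit1 and Rsad2, which type I interferon induces, were higher in the cKO library than in both controls. Ifit1 had 42.1 CPM against 7.43 and 7.19 (log2 fold change 2.52, SE 0.56, adjusted p = 0.288, edgeR), and Rsad2 had 48.0 against 9.66 and 5.71 (adjusted p = 0.287, edgeR). Neither passed, and this pair does not stand for all genes that interferon induces. All of these genes were picked with their values known, and the difference between the classes was not tested.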
